A study of Solanum lycopersicum with 8 samples.

Results

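Transcript levels of 10 tomato genes of gibberellin synthesis, gibberellin inactivation and DELLA repression were compared in inflorescence meristems of 2 branching double mutants. The genes were taken by ID from a table of 34109 genes, and comprised 3 gibberellin 20-oxidase (*GA20ox*) genes, 2 gibberellin 3-oxidase (*GA3ox*) genes, 4 gibberellin 2-oxidase (*GA2ox*) genes and 1 DELLA gene, *PROCERA*. They were chosen by pathway with results of this same comparison already known. Their differences between genotypes are therefore given as description, without a p-value. The RefSeq gene table holds no IDs of the kind used here. A symbol was therefore given only where that table has 1 gene of the class on the chromosome of the ID. In addition, the 10 genes and the 20 further pathway IDs below had to hold only 1 such ID. This named 6 of the 10 genes, and the *GA2ox* genes are given by ID.

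The RNA came from 4 libraries of *plt3* *plt7*, which carries CRISPR-Cas9 coding mutations in the AP2-domain transcription factor paralogues *PLT3* and *PLT7* in the M82 cultivar, and 4 libraries of *ej2* *j2*, which carries mutations in the SEPALLATA-type MADS-box paralogues *EJ2* and *J2*. Meristems were dissected from 8-week-old plants, and the growth protocol in the labels gives 4 plants. Both mutants overproliferate meristems, no wild-type library was analysed here, and the genotypes differ at both gene pairs, so a difference between them cannot be assigned to either pair. All 4 deposited libraries of each genotype were used. They belong to a single experiment, and no batch is labelled. Values are TPM (reads scaled by transcript length and by the library sum of these scaled values), which keep no read numbers. The depth is therefore unknown and a gene without signal is described as listed at 0.

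Gibberellins are growth hormones made from a diterpene precursor. GA20ox enzymes carry out late oxidation steps, GA3ox enzymes complete the bioactive forms, and GA2ox enzymes inactivate the bioactive forms or their precursors. Bioactive gibberellin binds GID1 receptors, and the complex is recognized by an F-box protein that leads to the breakdown of DELLA proteins, which hold back growth. In shoot meristems of several species, KNOX proteins keep *GA20ox* transcription low and *GA2ox* genes are transcribed at the base of the meristem, and loss of *PROCERA* makes tomato plants tall as if they were treated with gibberellin.

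The summed level of the 3 *GA20ox* genes separated the genotypes, and those of the other classes did not. It ranged from 0.0874 to 1.64 TPM per library in *plt3* *plt7*, against 40.3 to 54.0 TPM in *ej2* *j2*. The *GA3ox* sum ranged from 0.792 to 4.62 TPM in *plt3* *plt7* and from 0.370 to 1.90 TPM in *ej2* *j2*. The *GA2ox* sum ranged from 62.0 to 256 TPM in *plt3* *plt7* and from 8.89 to 439.9 TPM in *ej2* *j2*. The genotypes overlapped in both, and also in *PROCERA*, which ranged from 23.0 to 316 TPM in *plt3* *plt7* and from 72.8 to 243 TPM in *ej2* *j2*. In bulk tissue, a lower share of cells that transcribe a gene and less transcript per cell cannot be told apart, and this holds for every difference below.

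**Figure D1:**
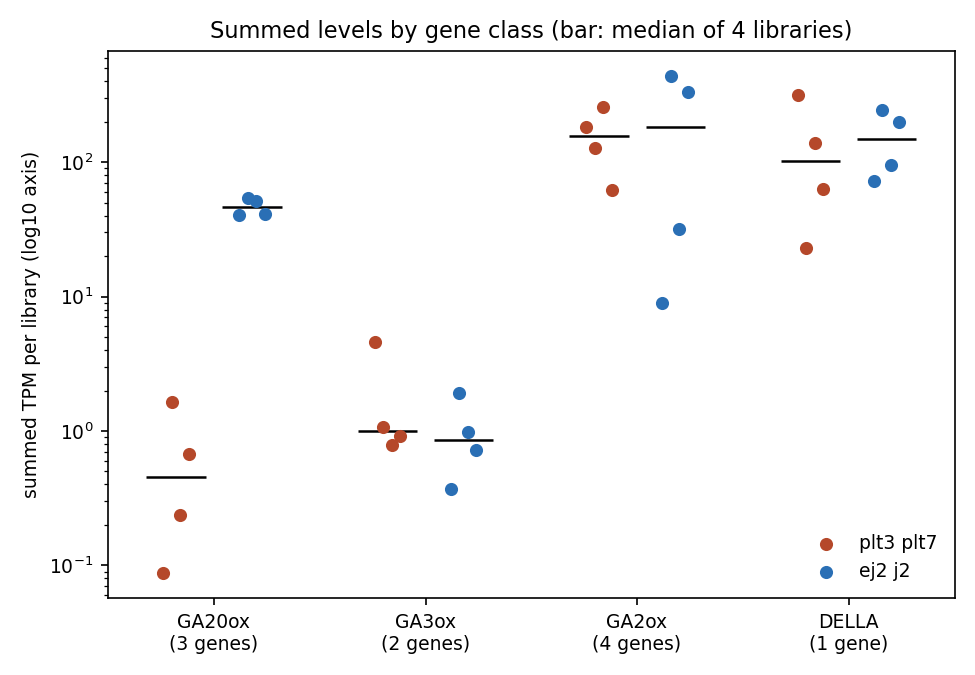
Summed TPM of each gibberellin gene class in each library, on a log10 axis, with *plt3* *plt7* left of *ej2* *j2*; points are libraries and bars are medians of 4 libraries. The *GA20ox* sums do not overlap between the genotypes (at most 1.64 TPM in *plt3* *plt7*, at least 40.3 TPM in *ej2* *j2*), whereas the *GA3ox*, *GA2ox* and DELLA values do.

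Nearly the whole *GA20ox* difference lay in *20ox-2* (Solyc06g035530). Its levels were 0.0874, 1.64, 0.239 and 0.669 TPM in *plt3* *plt7* replicates 1 to 4, against 32.5, 53.5, 51.0 and 40.7 TPM in *ej2* *j2* replicates 1 to 4. All 4 *plt3* *plt7* libraries were low and all 4 *ej2* *j2* libraries were high, and the lowest *ej2* *j2* library stood 19.8-fold above the highest *plt3* *plt7* library. The means were 0.659 ± 0.699 TPM in *plt3* *plt7* and 44.4 ± 9.67 TPM in *ej2* *j2* (SD, n = 4 each), a 67.4-fold lower mean in *plt3* *plt7*. The medians, 0.454 TPM in *plt3* *plt7* and 45.8 TPM in *ej2* *j2*, differed 101-fold. Values under 1 TPM make these ratios imprecise. Without *plt3* *plt7* replicate 2, the highest of its genotype, the means were 0.332 TPM in *plt3* *plt7* and 44.4 TPM in *ej2* *j2*, 134-fold apart, and with any other single library left out the ratio was between 52.3 and 73.5. On the log2(TPM + 1) scale, which understates changes of genes with low values, the difference (*plt3* *plt7* minus *ej2* *j2*) was -4.84 with a limma standard error of 0.83.

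The position of *20ox-2* within each library also differed. It exceeded 37.5% to 49.3% of all genes in the table in *plt3* *plt7* libraries, against 82.2% to 89.0% in *ej2* *j2* libraries. In other words, a transcript among the more abundant ones in *ej2* *j2* meristems ranked below the midpoint of the table, where genes at 0 are included, in *plt3* *plt7* meristems. Within *plt3* *plt7* the highest library was 18.8-fold above the lowest, at levels near or under 1 TPM, and within *ej2* *j2* it was 1.64-fold above the lowest. The residual SD over both genotypes, 0.46 on the log2(TPM + 1) scale, understates the relative spread in *plt3* *plt7*, because that scale compresses values under 1 TPM. Leaving out any single library kept the log2(TPM + 1) difference between -5.09 and -4.66.

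The remaining *GA20ox* genes were low. *GA20OX1* (Solyc03g006880) was listed at 0 in all 4 *plt3* *plt7* libraries, against 7.73, 0.478, 0.506 and 0.753 TPM in *ej2* *j2* replicates 1 to 4. The groups did not overlap, but 1 *ej2* *j2* library stood far above the other three, which were all under 1 TPM. Its mean in *ej2* *j2* was 2.37 ± 3.58 TPM (SD, n = 4), and 0.579 TPM without replicate 1. The log2(TPM + 1) difference was -1.27 with a standard error of 0.52, and -0.65 without that library, without which the gene would not have reached the mean of 1 TPM needed to enter the fit. No fold change can be given against a group listed at 0. *20ox-3* (Solyc11g072310) was listed at 0 in all 8 libraries. As a result, *20ox-2* made up 100% of the *GA20ox* sum in each *plt3* *plt7* library and between 80.8% and 99.1% in *ej2* *j2* libraries, with the low value in replicate 1, where *GA20OX1* was highest.

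Both *GA3ox* genes, whose products make bioactive gibberellin, were near or under 1 TPM in most libraries. *GA3ox1* (Solyc06g066820) had 0.0910, 0.796, 0.0891 and 0.226 TPM in *plt3* *plt7*, against 0.329, 1.16, 0.595 and 0.0568 TPM in *ej2* *j2*. The ranges overlapped almost fully and the mean over all libraries, 0.418 TPM, was too low for the fit. The second gene, *3OH-2* (Solyc03g119910), had 4.53, 0.280, 0.703 and 0.691 TPM in *plt3* *plt7*, against 0.0407, 0.747, 0.381 and 0.669 TPM in *ej2* *j2*. Only *plt3* *plt7* replicate 1 stood above the *ej2* *j2* range. The log2(TPM + 1) difference was 0.57 with a standard error of 0.54, and 0.11 without that library, and the means were then 0.558 TPM in *plt3* *plt7* and 0.459 TPM in *ej2* *j2*.

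**Figure D2:**
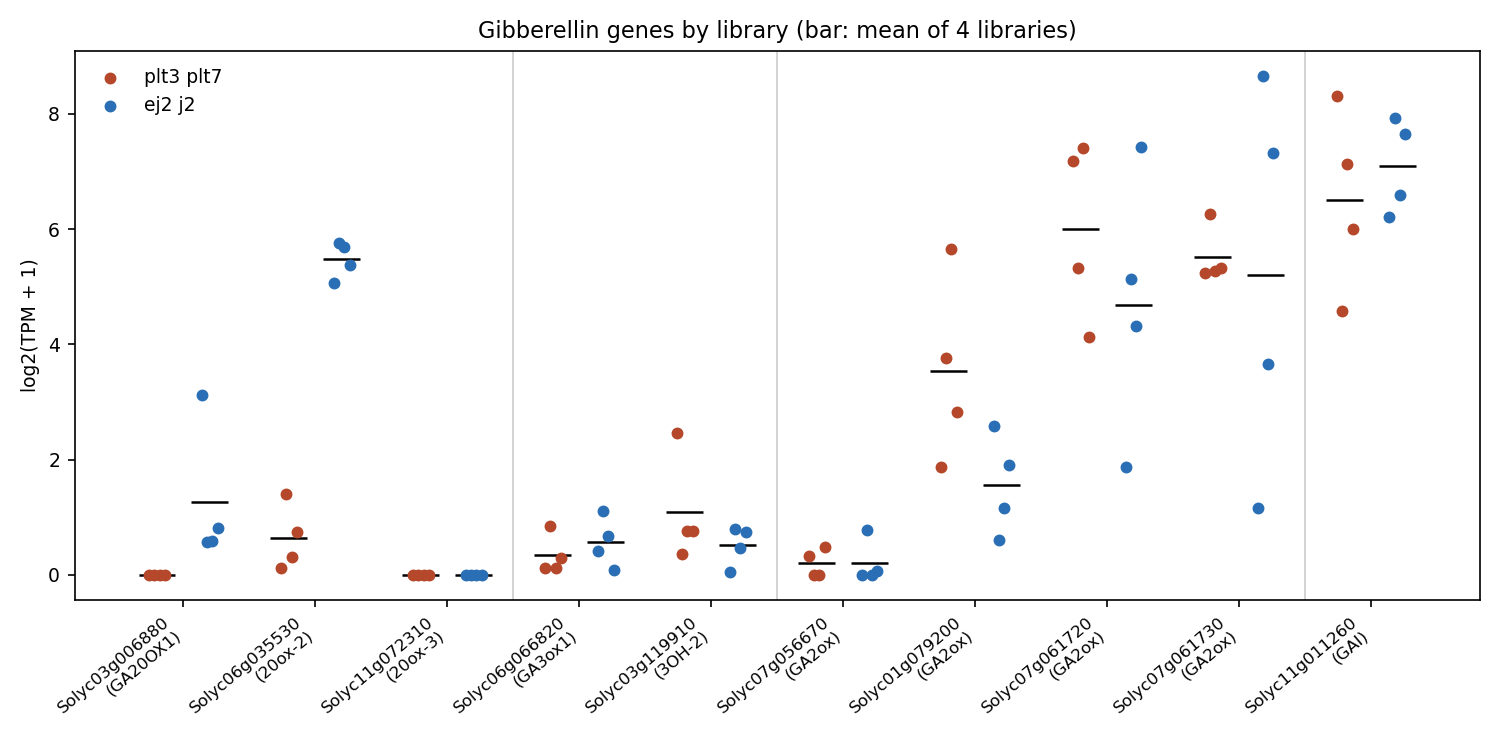
Level of each of the 10 genes as log2(TPM + 1) in each library, with *plt3* *plt7* left of *ej2* *j2* for every gene; points are libraries, bars are means of 4 libraries, and grey lines separate *GA20ox*, *GA3ox*, *GA2ox* and DELLA genes. *20ox-2* shows a wide gap between the genotypes (0.0874 to 1.64 TPM in *plt3* *plt7*, 32.5 to 53.5 TPM in *ej2* *j2*), and the *GA2ox* genes Solyc07g061720 and Solyc07g061730 the widest scatter.

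Among the inactivating enzymes, Solyc01g079200 showed the clearest tendency. Its levels were 2.68, 12.7, 49.7 and 6.10 TPM in *plt3* *plt7*, against 4.998, 0.526, 1.23 and 2.74 TPM in *ej2* *j2*. Of the *plt3* *plt7* libraries, 3 of 4 were above the highest *ej2* *j2* library, while replicate 1 lay inside the *ej2* *j2* range, so the groups overlapped. The mean was 17.8 ± 21.7 TPM in *plt3* *plt7* and 2.37 ± 1.98 TPM in *ej2* *j2* (SD, n = 4 each), 7.50-fold higher in *plt3* *plt7*. The log2(TPM + 1) difference was 1.97 with a standard error of 0.78. It depended in size on *plt3* *plt7* replicate 3, without which the mean in *plt3* *plt7* was 7.15 TPM the ratio of means 3.02 and the log2 difference 1.26.

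Among the 4 *GA2ox* genes, the chromosome 7 pair Solyc07g061720 and Solyc07g061730 gave most transcript in every library except *ej2* *j2* replicate 1. These IDs are adjacent in the table, with 0 listed IDs between them, and the sources used here do not state how reads matching several genes were treated, so the division of reads between 2 related neighbours is uncertain. Together they made up 80.6% to 98.4% of the *GA2ox* sum in *plt3* *plt7* libraries and 43.8% to 99.7% in *ej2* *j2* libraries. Solyc07g061720 had 144, 39.4, 169 and 16.5 TPM in *plt3* *plt7*, against 2.66, 34.2, 19.0 and 171 TPM in *ej2* *j2*. The ranges overlapped almost completely, since *ej2* *j2* replicate 4 was as high as the highest *plt3* *plt7* library. The log2(TPM + 1) difference of 1.32 had a standard error of 0.92 and ranged from 0.39 without *ej2* *j2* replicate 1 to 2.24 without *ej2* *j2* replicate 4.

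Solyc07g061730 was even in *plt3* *plt7* and very uneven in *ej2* *j2*. It had 36.7, 75.5, 37.7 and 39.1 TPM in *plt3* *plt7*, against 1.23, 405, 11.6 and 159 TPM in *ej2* *j2*. All *plt3* *plt7* libraries lay between the low pair of *ej2* *j2* libraries, replicates 1 and 3, and the high pair, replicates 2 and 4. The direction depended on the scale, since the mean was 47.2 ± 18.9 TPM in *plt3* *plt7* and 144 ± 188 TPM in *ej2* *j2* (SD, n = 4 each), whereas the log2(TPM + 1) difference was 0.32 with a standard error of 0.93. That difference was -1.03 without *ej2* *j2* replicate 1 and 1.48 without *ej2* *j2* replicate 2. The ratio of Solyc07g061730 to Solyc07g061720 was 0.256, 1.92, 0.223 and 2.37 in *plt3* *plt7*, against 0.463, 11.8, 0.614 and 0.932 in *ej2* *j2*. Either gene could thus be the more abundant in either genotype.

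The spread of the pair between libraries of a genotype was wide, except for Solyc07g061730 in *plt3* *plt7*. The highest library stood 10.2-fold above the lowest in *plt3* *plt7* and 64.2-fold in *ej2* *j2* for Solyc07g061720, and 2.05-fold in *plt3* *plt7* and 328-fold in *ej2* *j2* for Solyc07g061730. The residual SD over both genotypes was 1.96 for Solyc07g061720 and 2.45 for Solyc07g061730 on the log2 scale, larger than in 96.1% and 99.5% of the 1000 genes nearest in mean level. The fourth gene of the class, Solyc07g056670, was close to the lower limit of the table. It had 0.2497, 0, 0 and 0.392 TPM in *plt3* *plt7*, against 0, 0.718, 0 and 0.0502 TPM in *ej2* *j2*. It was listed at 0 in 2 libraries of each genotype, and no difference can be read at this level.

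*PROCERA* (Solyc11g011260, RefSeq symbol *GAI*), which encodes the DELLA repressor, had the highest median of the 10 genes in both genotypes. It had 316, 23.0, 140 and 63.5 TPM in *plt3* *plt7*, against 72.8, 243, 95.7 and 200.2 TPM in *ej2* *j2*. *plt3* *plt7* libraries included both the highest and the lowest of the 8 values, and the groups overlapped. The means, 136 ± 129.8 TPM in *plt3* *plt7* and 153 ± 81.9 TPM in *ej2* *j2* (SD, n = 4 each), differed by less than the spread between libraries. The log2(TPM + 1) difference of -0.59 had a standard error of 0.92, and was -1.19 without *plt3* *plt7* replicate 1 and 0.06 without *plt3* *plt7* replicate 2.

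Some libraries were high in several genes at once. *plt3* *plt7* replicates 1 and 3 had the highest values of their genotype for both Solyc07g061720 and *PROCERA*, and *ej2* *j2* replicates 2 and 4 had the highest of theirs for Solyc07g061720, Solyc07g061730 and *PROCERA*. *20ox-2* was lowest in *plt3* *plt7* replicates 1 and 3, the libraries of that genotype in which Solyc07g061720 and *PROCERA* were highest. In *ej2* *j2* its higher values were in replicates 2 and 3, a different division from that of the other three genes. Other genes of *plt3* *plt7* went differently. Solyc07g061730 was highest in replicate 2 (75.5 TPM), where *PROCERA* was lowest (23.0 TPM). Solyc01g079200 was lowest in replicate 1 (2.68 TPM), where *PROCERA* was highest (316 TPM). How often genes share their highest libraries over the whole table was not calculated, so nothing is read from these patterns.

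The order of median levels differed in the places of *20ox-2*, *GA20OX1* and the chromosome 7 pair. In *plt3* *plt7* the order was *PROCERA* (102 TPM), Solyc07g061720 (91.5 TPM), Solyc07g061730 (38.4 TPM), Solyc01g079200 (9.39 TPM), *3OH-2* (0.697 TPM), *20ox-2* (0.454 TPM), *GA3ox1* (0.158 TPM) and Solyc07g056670 (0.125 TPM), followed by *GA20OX1* and *20ox-3* at 0. In *ej2* *j2* it was *PROCERA* (148 TPM), Solyc07g061730 (85.5 TPM), *20ox-2* (45.8 TPM), Solyc07g061720 (26.6 TPM), Solyc01g079200 (1.98 TPM), *GA20OX1* (0.629 TPM), *3OH-2* (0.525 TPM), *GA3ox1* (0.462 TPM) and Solyc07g056670 (0.0251 TPM), followed by *20ox-3* at 0. *20ox-2* was 6th in *plt3* *plt7* and 3rd in *ej2* *j2*, *GA20OX1* was in the last places at 0 in *plt3* *plt7* and 6th in *ej2* *j2*, and Solyc07g061720 stood above Solyc07g061730 in *plt3* *plt7* and below it in *ej2* *j2*. The ranges of every pair of neighbours in these orders overlapped, so neither order is resolved step by step. Solyc07g061720, Solyc07g061730 and *PROCERA* were the 3 genes above 1 TPM in all 8 libraries.

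Among the 10 genes, the ratio of *GA2ox* to *GA20ox* transcripts followed *20ox-2*. Summed *GA2ox* over summed *GA20ox* TPM was 2099, 77.8, 1073 and 92.7 in *plt3* *plt7*, against 0.221, 8.15, 0.618 and 8.03 in *ej2* *j2*. Every *plt3* *plt7* ratio was above every *ej2* *j2* ratio, and the ratio was under 1 only in *ej2* *j2* replicates 1 and 3. Since *20ox-2* made up most of the denominator and the *GA2ox* sums overlapped, this separation restates the gap in *20ox-2* and is no further result. These ratios, and the shares below, leave out 6 further IDs listed as *GA2ox*. Of these, Solyc02g080120 had 70.0 and 35.5 TPM in *ej2* *j2* replicates 1 and 3, in replicate 1 above the *GA20ox* sum of 40.3 TPM. A ratio under 1 therefore holds only for the genes summed here. The ratios, though not the shares below, also leave out the 2 *GA3ox* genes of synthesis. In *plt3* *plt7* replicates 1, 3 and 4 the *GA3ox* sum, 4.62, 0.792 and 0.916 TPM, was above the *GA20ox* sum, 0.0874, 0.239 and 0.669 TPM. In replicate 2 it was below, at 1.08 against 1.64 TPM. The ratios are thus no balance of inactivation to all synthesis transcripts. *GA20ox* transcripts were 0.0465% to 1.26% of the TPM of all 9 enzyme genes in *plt3* *plt7* libraries and 10.9% to 81.3% in *ej2* *j2* libraries. Within *ej2* *j2* the wide range of that share came from the *GA2ox* sum, which was 8.89 and 31.8 TPM in replicates 1 and 3 and 439.9 and 333 TPM in replicates 2 and 4, while the *GA20ox* sum stayed between 40.3 and 54.0 TPM. Ratios with a denominator under 1 TPM are imprecise, and these values describe transcripts, not enzyme activity or hormone.

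Against the whole table, 7 of the 10 genes reached a mean of at least 1 TPM. Of these, 4 had log2(TPM + 1) differences above 0 and 3 below, with a median of 0.32, beside 10163 above, 9381 below and a median of 0.05 over all 19544 genes in the fit. Over all genes in the fit, limma called 1.84% in either direction and 0.962% lower in *plt3* *plt7* at an adjusted p under 0.05. No such call is given for the 10 genes. The libraries of the genotypes did not overlap for 2 of the 10 genes, *20ox-2* and *GA20OX1*, both lower in *plt3* *plt7*, beside 6.87% of the 19544 genes in either direction and 3.00% lower. The genes were chosen on this contrast and 3 of the 7 averaged 1 TPM or more in 1 genotype only, *20ox-2* and *GA20OX1* in *ej2* *j2* and *3OH-2* in *plt3* *plt7*, so nothing is read from these counts.

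**Figure D3:**
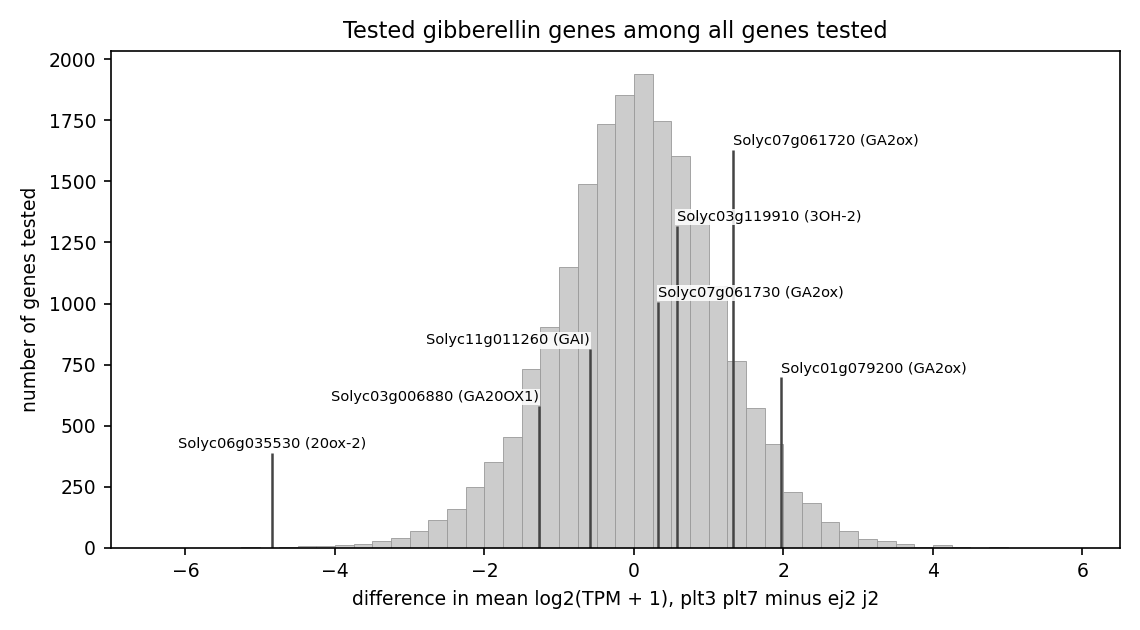
Number of genes (y axis) by difference in mean log2(TPM + 1), *plt3* *plt7* minus *ej2* *j2* (x axis), for the 19544 genes averaging 1 TPM or more; labelled vertical lines mark the 7 gibberellin genes among them, and line heights carry no value. *20ox-2* lies at -4.84, in the far lower tail, and the other six lie between -1.27 and 1.97.

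The rest of the pathway was examined in 20 further IDs, of which 19 were in the table and 12 were tested. Their classes were assigned from general knowledge. Of the 20, 7 have a single RefSeq gene of the class on their chromosome and are the only listed ID of that class there. By limma, adjusted over all genes, 0 of the 12 were higher and 0 lower in *plt3* *plt7*, beside 1.84% of all genes in either direction. Of the 12, 1 had an unadjusted limma p under 0.05, beside 2706 of the 19544 genes in the fit. This was Solyc04g083160, listed for early synthesis, at 6.49, 18.5, 115 and 107 TPM in *plt3* *plt7*, against 8.24, 17.9, 7.52 and 2.52 TPM in *ej2* *j2*. Its log2(TPM + 1) difference was 2.11 ± 0.89 (SE), with an adjusted p of 0.233 in limma's test. Differences of the 12 genes ran from -1.45 to 2.11, with 6 above and 6 below 0. The libraries of the genotypes did not overlap for 1 of the 12, Solyc01g080900, beside 6.87% of all genes in the fit. It was lower in *plt3* *plt7*, at 14.6, 15.3, 6.29 and 1.54 TPM, against 20.2, 15.5, 38.5 and 17.8 TPM in *ej2* *j2*. This gap was narrow, and the gene did not pass the limma test (adjusted p = 0.482).

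Other *GA20ox* transcript was scarce. The fourth listed gene, *GA20ox4* (Solyc01g093980), had 0, 0.138, 0.103 and 0 TPM in *plt3* *plt7*, against 0.449, 0.219, 0 and 0 TPM in *ej2* *j2*. The 6 other *GA2ox* IDs were not scarce in sum, at 17.9 to 127 TPM in *plt3* *plt7* and 8.10 to 95.8 TPM in *ej2* *j2*. Of these IDs, 2 were tested and did not pass. Solyc02g080120, with the higher medians, had 125, 74.9, 75.4 and 10.6 TPM in *plt3* *plt7*, against 70.0, 7.28, 35.5 and 4.92 TPM in *ej2* *j2*. *GA2ox1* (Solyc05g053340) was above 0 in 1 library, at 0.230 TPM in *plt3* *plt7* replicate 3. The receptors were well expressed, and the 3 *GID1* genes summed to 388 to 796 TPM in *plt3* *plt7* and to 144 to 1017 TPM in *ej2* *j2*. Of these, *GID1b-2* (Solyc06g008870) had the largest log2(TPM + 1) difference, 1.27 ± 0.91 (SE), with a limma adjusted p of 0.582. *GID2* (Solyc04g078390), for the F-box protein that recognizes DELLA, differed by -0.07 ± 0.91, and the gibberellin-induced *gast1* (Solyc02g089350) by -0.69 ± 0.56, with limma adjusted p-values of 0.986 and 0.652. These standard errors are too wide to tell a small difference from none.

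**Figure D4:**
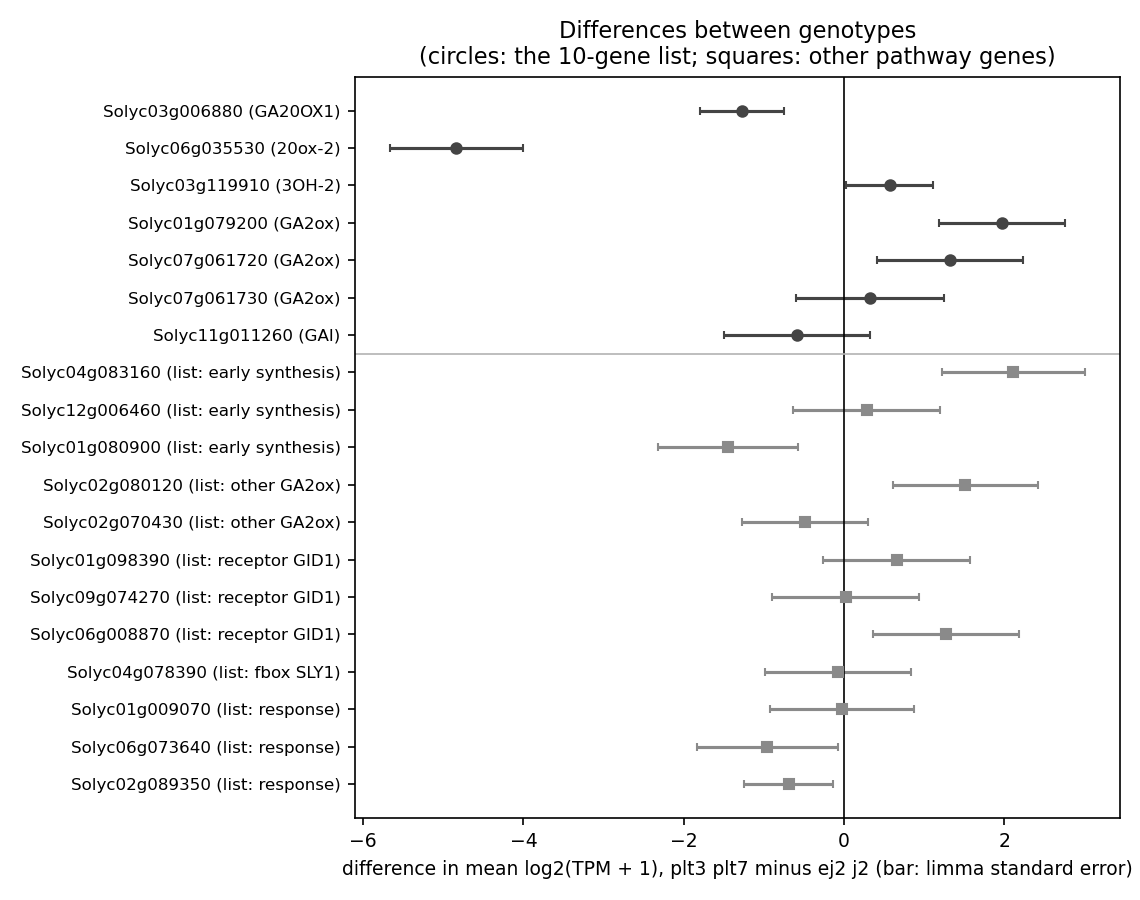
Difference in mean log2(TPM + 1), *plt3* *plt7* minus *ej2* *j2* (x axis), for gibberellin genes averaging 1 TPM or more; circles above the grey line are 7 of the 10 listed genes, squares below it are 12 further pathway genes, and bars are limma standard errors. *20ox-2* lies at -4.84, while the 12 squares lie between -1.45 and 2.11 and none passed the test.

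Markers of the tissue were set beside these values. Of 8 meristem genes taken as tissue markers, 7 were above 0 in at least 1 *plt3* *plt7* library and all 8 in at least 1 *ej2* *j2* library, with summed levels of 264 to 917 TPM in *plt3* *plt7* and 388 to 1087 TPM in *ej2* *j2*. Such sums rest mostly on the most abundant genes. Solyc02g081670 was listed at 0 in every *plt3* *plt7* library, against 3.70, 8.76, 6.66 and 0.125 TPM in *ej2* *j2*. By limma it was the only 1 of the 8 called, lower in *plt3* *plt7* (adjusted p = 0.0242), beside 0.962% of all genes in the fit called lower. This call was lost when any single *plt3* *plt7* library or *ej2* *j2* replicate 2 or 3 was left out (limma adjusted p from 0.0516 to 0.0979), and without the filter on low values (0.164). Solyc02g077390 also did not overlap, at 3.11, 8.80, 3.70 and 51.8 TPM in *plt3* *plt7*, against 64.7, 58.9, 94.7 and 96.3 TPM in *ej2* *j2*, with a limma adjusted p of 0.0552 that ranged from 0.0264 to 0.227 over the alternatives. Of the 8 log2(TPM + 1) differences, 6 were below 0, with a median of -1.27. Of the 8, 3 had an unadjusted limma p under 0.05 and 2 genes had no overlap, beside 2706 and 1343 of the 19544 genes in the fit. Beside the 2 genes above, the low p belonged to Solyc11g071380 (*CLV3*). It had 0.641, 0, 0.380 and 1.13 TPM in *plt3* *plt7*, against 7.50, 2.99, 0.885 and 8.40 TPM in *ej2* *j2* (limma adjusted p = 0.131). Of 7 photosynthesis genes taken as markers of green tissue, 5 were tested and none passed, with sums of 557 to 1232 TPM in *plt3* *plt7* and 278 to 998 TPM in *ej2* *j2*. Of the 5, 2 had an unadjusted limma p under 0.05, with differences of 1.82 and -1.80, and 1 had no overlap. In *ej2* *j2*, replicates 1 and 2 had 9.16% and 10.7% of their TPM in the 10 highest genes, against 4.14% to 5.75% in the other six libraries. The part of tissue makeup and of these libraries in the values of the 10 genes, *20ox-2* included, was not tested.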

How the data were processed

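Inflorescence meristem RNA was depleted of ribosomal RNA and sequenced by the authors in 8 libraries, 4 per genotype. They trimmed reads with Trimmomatic, aligned them with STAR 2.6.1 to the tomato cDNA annotation and deposited TPM values calculated in R. The sources used here state neither the strand setting nor how multi-mapping reads were treated. TPM keeps no depth, so no counting error is given.

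Values were analysed as log2(TPM + 1), without rescaling, over the 19544 genes averaging 1 TPM or more, with limma 3.58.1 in R 4.3.3 (eBayes with trend, two-sided, Benjamini-Hochberg over all genes tested, threshold 0.05). Each gene's 6 residual degrees of freedom were combined with 365 prior ones, so standard errors come mostly from genes of similar level. P-values likewise rest mostly on this pooled spread between libraries, not on each gene's own spread. Tables and figures used Python 3.11.15, pandas 2.3.3, numpy 2.4.6 and matplotlib 3.10.9. All value columns were mapped to samples by name.

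The members, lists and tests were chosen with earlier results of these data known. Pathway and marker IDs come from general knowledge, and names from the RefSeq table of assembly SLM_r2.1, in which 0 entries carry such IDs. Named genes are all 10 members and, of other pathway genes, those past the threshold and 1 example per class. Examples were taken where the RefSeq table has a gene of the class on that chromosome. The receptor example, Solyc02g080120, Solyc04g083160, Solyc01g080900, Solyc02g081670, Solyc02g077390 and Solyc11g071380 were picked after their values were seen. Alternatives were another pseudocount (0.1), no filter, a minimum mean of 5 TPM, a replicate block, library weights, quantile normalization, median-of-ratios rescaling and leaving out each library. No sequence is shown.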

Additional observations from a re-analysis of the deposited data

Results flagged for a closer look

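In 4 of the 17 groups of 4 libraries examined over the 10 genes, 1 library stood far from the rest by Dixon's criterion on the TPM scale. Its rate of about 5% of groups set apart by chance holds for normally distributed values. TPM near 0 is skewed and the rate over all genes was not calculated, so the count is not read as an excess. Solyc03g119910 (*3OH-2*) was at 4.53 TPM in *plt3* *plt7* replicate 1, with the nearest library at 0.703 TPM. Solyc07g061730 was at 75.5 TPM in *plt3* *plt7* replicate 2, with the nearest at 39.1 TPM. Solyc03g006880 (*GA20OX1*) was at 7.73 TPM in *ej2* *j2* replicate 1, with the nearest at 0.753 TPM. Solyc07g056670 was at 0.718 TPM in *ej2* *j2* replicate 2, with the nearest at 0.0502 TPM. The 4 values came from 4 genes and 4 libraries. Of these libraries, *ej2* *j2* replicates 1 and 2 are also those with the largest share of TPM in a few genes, and the part of this in the values was not tested.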

How the results depend on the processing

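As a description of genes chosen on this contrast, the log2 difference of *20ox-2* ran from -6.34 (pseudocount 0.1) to -4.66 over the 15 alternatives. With that pseudocount, *GA20OX1* moved to -3.63 and *GA3ox1* to -0.62. The sign held in 13 of 15 alternatives for Solyc07g061730, 14 for *PROCERA* and 10 for Solyc07g056670, and in all 15 for the other genes, *20ox-2* included, except *20ox-3*, which was listed at 0. Genes whose libraries do not overlap numbered 2 of 10, beside 1343 of all 19544 genes in the fit. Without *plt3* *plt7* replicate 1 they numbered 3, as Solyc01g079200 joined them, beside 1915 of 19496. With fewer libraries, non-overlap is easier for every gene. No other pathway gene passed under any alternative. Over all genes, 359 differed, 11 without a filter, 229 with a mean of at least 5 TPM, and 138 to 446 when 1 library was left out. Libraries that moved this count by over 1.5 times were *plt3* *plt7* replicates 1 (153) and 4 (138) and *ej2* *j2* replicates 1 (181), 3 (161) and 4 (220). A replicate block gave 303. Same-numbered libraries correlated between -0.03 and 0.01 in their deviations from the group means, and differently numbered ones between -0.07 and 0.06. No pairing by number was thus seen over all genes in the fit, and pairing in part of the genes was not tested. The unknown depth and 4 libraries per genotype limit every gene under about 1 TPM.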
